A study of Mus musculus with 12 samples.

Results

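Integrins are the cell surface receptors that hold fibroblasts to the matrix around them. The genes described here are the 9 integrin subunits Itga1, Itga3, Itga5, Itga6, Itga11, Itgav, Itgb1, Itgb3 and Itgb5, taken by symbol as 9 rows of the 32721 in the deposited expression table, and all 9 passed the filter on low values that left 14279 genes for testing. The libraries came from a mouse embryonic fibroblast line that is Vps15f/f, which means that both copies of Pik3r4, the gene for Vps15, carry target sites of Cre recombinase. Vps15 is the regulatory partner of the class 3 PI3K catalytic subunit, which makes a lipid of endosomes and autophagosomes. There were 4 groups of 3 libraries. Vps15KO EBSS and Vps15KO basal cells had received adeno-CRE, and WT EBSS and WT basal cells adeno-GFP, so that all cells came from the floxed line and received an adenovirus. Cells at 90% confluence had been growing in DMEM with 4.5 g/L glucose and 10% FBS, and 5 days after transduction were given EBSS, an amino-acid free medium, for 2 h or were kept in basal medium. EBSS also lacks serum. These groups do not separate the loss of serum from that of amino acids, or either from any other difference between the media. The library names read pLEX_GFP and pLEX_CRE where the titles give adeno vectors, no label tells which exons are excised, and none says that replicates were separate cultures. The p-values below therefore measure the spread between these libraries, which may be technical.

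An integrin is a dimer of an alpha and a beta subunit, and the alpha subunit largely sets which ligand is bound. Itgb1 pairs with Itga1 and Itga11 in collagen receptors, with Itga3 and Itga6 in laminin receptors and with Itga5 in the main fibronectin receptor, while Itgav pairs with Itgb1, Itgb3 or Itgb5 and, like Itga5, binds ligands through the short RGD motif. On the cytoplasmic side the beta tails recruit talin, kindlin and focal adhesion kinase, and surface integrins are continually taken into endosomes and returned to the membrane.

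Each library held between 21278921 and 21698584 reads in genes, so depth differed little. Pik3r4 had 632 ± 35.9 normalized counts in Vps15KO EBSS cells, against 895 ± 62.7 in WT EBSS cells, and 658 ± 36.7 in Vps15KO basal cells, against 875 ± 10.3 in WT basal cells (mean ± SD, n = 3 in every group here and below). It was thus at 70.7% of WT in EBSS and 75.1% in basal medium, with the Vps15KO libraries under the WT libraries. Reads were counted over the whole gene, so these values do not tell how many cells recombined. WT basal replicate 2 and WT EBSS replicate 1 stood apart from their replicates in read counts, with a chi-square per gene of 19.1 or more and of 7.73 or more, against at most 5.92 between replicates in the Vps15KO groups. Of 10 fibroblast markers, 9 were expressed at testable levels and Thy1 had at most 3 reads in any library. The summed fibroblast markers stood at 182598 to 195545 normalized counts in Vps15KO EBSS cells, against 404457 to 452383 in WT EBSS cells, and at 202499.5 to 211121 in Vps15KO basal cells, against 466808 to 490960 in WT basal cells. Dcn overlapped between genotypes in both media, averaging 156 in Vps15KO EBSS, 188.5 in WT EBSS, 144 in Vps15KO basal and 150 in WT basal cells. The other testable markers of this list were lower in Vps15KO in both media without overlap. Of 8 leukocyte markers, 3 were testable, and Ptprc, Adgre1 and Tyrobp had at most 3 reads everywhere. Cd68, a lysosomal protein on that list, averaged 2849 normalized counts in Vps15KO EBSS cells, against 822 in WT EBSS cells. Cd14 had 46 to 103 reads per library, Csf1r 1 to 17, Fcer1g at most 7 and Laptm5 at most 6. On the other lists, 1 of 7 epithelial, 1 of 7 endothelial, 3 of 6 skeletal muscle and 3 of 5 neural markers were testable. Of these, the neural marker Nes had the most reads, at 651 to 1430, and the endothelial Erg had 13 to 147. In bulk RNA, fewer cells of a kind and less RNA per cell cannot be told apart.

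In the RefSeq annotation of the build named in the submitters' processing notes (mm10, GRCm38), the beta subunit genes lie at chr8:128685654-128733579 (Itgb1), chr11:104608000-104670476 (Itgb3) and chr16:33829665-33949338 (Itgb5). The alpha subunit genes lie at chr13:114958079-115101964 (Itga1), chr9:62677855-62783979 (Itga11), chr11:95044475-95076844 (Itga3), chr2:71786886-71858427 (Itga6), chr15:103344286-103366791 (Itga5) and chr2:83722303-83806917 (Itgav). Exons of Itga1 overlap those of Gm49395 on the same strand over 685 bp, and exons of Itgav overlap Gm13684 on the other strand over 634 bp. Neither neighbour was analysed here, and the use of strand in counting is not given in the sources used here. The 250 bases before the annotated start are shown for 4 genes, Itga5, which had the largest EBSS effect of the 9 in WT cells, and Itga11, Itgb5 and Itgb1, which were lower in Vps15KO cells of both media. The sequences are RefSeq's (GRCm38.p6), written 5′ to 3′ on the strand of the gene, with motif matches in capitals. Their positions are chr15:103366792-103367041 (minus strand) for Itga5, and on the plus strand chr9:62677605-62677854 for Itga11, chr16:33829415-33829664 for Itgb5 and chr8:128685404-128685653 for Itgb1.
Itga5: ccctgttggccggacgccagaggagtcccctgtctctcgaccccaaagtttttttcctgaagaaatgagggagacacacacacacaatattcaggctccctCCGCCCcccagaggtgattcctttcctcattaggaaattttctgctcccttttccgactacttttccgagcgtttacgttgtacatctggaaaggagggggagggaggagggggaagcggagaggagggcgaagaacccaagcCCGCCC
Itga11: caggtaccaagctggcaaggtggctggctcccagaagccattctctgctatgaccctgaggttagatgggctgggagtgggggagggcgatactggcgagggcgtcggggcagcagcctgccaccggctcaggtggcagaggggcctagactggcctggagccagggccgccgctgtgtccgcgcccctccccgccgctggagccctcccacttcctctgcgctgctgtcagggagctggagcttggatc
Itgb5: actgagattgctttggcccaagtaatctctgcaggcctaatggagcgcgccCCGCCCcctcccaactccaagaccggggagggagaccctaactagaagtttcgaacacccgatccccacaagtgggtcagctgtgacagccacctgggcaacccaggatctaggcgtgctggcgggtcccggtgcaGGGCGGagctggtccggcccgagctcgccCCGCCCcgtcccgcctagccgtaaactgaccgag
Itgb1: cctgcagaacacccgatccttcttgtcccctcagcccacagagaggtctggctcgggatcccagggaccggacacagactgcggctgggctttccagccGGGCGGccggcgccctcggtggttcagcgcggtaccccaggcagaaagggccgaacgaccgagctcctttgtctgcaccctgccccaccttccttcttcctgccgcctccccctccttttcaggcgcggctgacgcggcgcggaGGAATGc
Motifs were searched on both strands, and 7 of the 9 genes had a RefSeq promoter entry, Itga6 and Itgb3 being the ones without. The Itga5 window holds 2 GC boxes of the SP1 type (GGGCGG, found in 32.7% of 32851 promoters of the same length), the Itgb5 window holds 3, and the Itgb1 window holds 1. The Itgb1 window also holds a TEAD site (GGAATG, in 12.6% of promoters) that ends at the second to last base before the start. The Itga11 window has none of the letters searched, which besides these were the AP-1 site TGANTCA (6.75% of promoters), the E-box CACGTG (6.02%), the FOXO site GTAAACA (3.17%) and the CArG box (1.47%). The windows of Itga1 and Itgav had no match either, and the first of the Itga3 windows had 3 GC boxes. A match is only a run of letters, and no binding was measured here.

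Among the beta subunits, Itgb3 was higher and both Itgb1 and Itgb5 were lower in Vps15KO cells, in EBSS as in basal medium. Itgb3 encodes the partner of Itgav in a vitronectin and fibrinogen receptor. It had 1410, 1458 and 1321 normalized counts (worked-back reads divided by the authors' size factor) in the Vps15KO EBSS libraries, against 647, 706 and 679 in the WT EBSS libraries. In basal medium it had 2152, 2181.8 and 2299 in Vps15KO, against 875, 841.5 and 871 in WT. The 4 groups occupied 4 separate ranges, and every Vps15KO library in either medium lay above every WT library. Itgb3 stood at 2.06 times the WT mean in EBSS and at 2.56 times in basal medium. The log2 differences of the deposited values, Vps15KO minus WT, were 1.01 ± 0.06 in EBSS (SE, adjusted p = 1.40e-10, limma with Benjamini-Hochberg adjustment over all genes tested, as for every adjusted p here) and 1.33 ± 0.06 in basal medium (adjusted p = 5.94e-12). EBSS lowered Itgb3 in both genotypes, by -0.65 ± 0.06 in Vps15KO (adjusted p = 7.41e-08) and -0.34 ± 0.06 in WT (adjusted p = 0.000113).

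Itgb5, the other beta subunit that pairs with Itgav and serves clathrin-rich adhesions, had the reverse genotype difference. Its libraries had 6228, 6273.5 and 6173.5 normalized counts in Vps15KO EBSS cells, against 10196, 11108 and 10932 in WT EBSS cells. In basal medium they had 7128, 7034 and 6881.5 in Vps15KO, against 11495, 13782 and 10553 in WT. All 6 Vps15KO libraries lay far below all 6 WT libraries, with WT basal replicate 2 the highest of the 12. The Vps15KO mean was 57.9% of WT in EBSS (log2 -0.78 ± 0.08, adjusted p = 7.09e-08) and 58.7% in basal medium (-0.76 ± 0.08, adjusted p = 1.25e-07). Vps15KO EBSS libraries lay wholly below Vps15KO basal libraries, and in WT the media overlapped. The EBSS effect on Itgb5 did not pass the test, at -0.17 ± 0.08 in Vps15KO (adjusted p = 0.0658) and -0.14 ± 0.08 in WT (adjusted p = 0.105). It was called in Vps15KO when WT basal replicate 2 or 3 was left out, with the same -0.17, and in WT without WT basal replicate 3, at -0.23. The effect in Vps15KO was also called with quantile normalization, library weights or only the groups compared, and without both WT libraries that stood apart.

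Itgb1, the common beta subunit, had 21191, 20635 and 20112 normalized counts in Vps15KO EBSS libraries, against 27253.5, 30537 and 30166 in WT EBSS libraries. In basal medium the values were 21167, 19577 and 20268 in Vps15KO, against 27462, 22239 and 26346 in WT. The genotypes did not overlap in either medium, though WT basal replicate 2 lay closest to the Vps15KO libraries. Itgb1 fell to 70.4% of WT in EBSS (-0.50 ± 0.08, adjusted p = 1.84e-05) and to 80.2% in basal medium (-0.31 ± 0.08, adjusted p = 0.00190), and under quantile normalization the EBSS difference was -0.22, still called, and the basal one -0.15, not called. EBSS left Itgb1 without a call in Vps15KO cells (0.02 ± 0.08, adjusted p = 0.828). In WT cells the increase of 0.21 ± 0.08 was called (adjusted p = 0.0214) although the EBSS and basal libraries overlapped, and it was not called without WT basal replicate 2 (0.12), WT EBSS replicate 2 (0.18) or WT EBSS replicate 3 (0.19), nor with length and GC trends taken out (0.05), with no filter on low values or with only the groups compared.

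**Figure D1:**
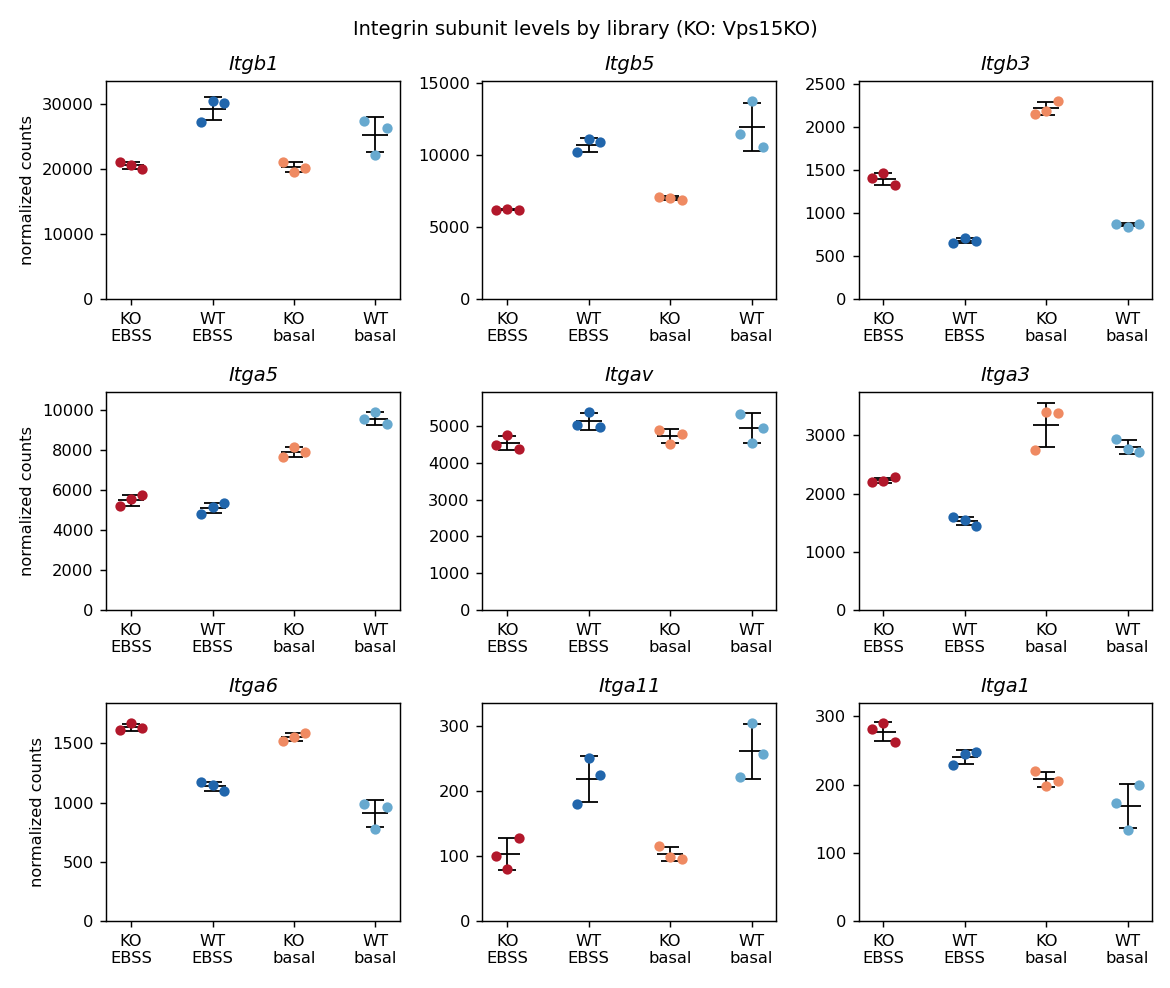
Normalized counts of each of the 9 integrin subunits in every library, by group, with the group mean and SD (n = 3). Itgb3 and Itga6 lie higher and Itgb5, Itgb1 and Itga11 lower in the Vps15KO groups, and Itga5 and Itga3 lie lower in EBSS than in basal medium in both genotypes.

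Of the alpha subunits of RGD receptors, Itga5 fell in EBSS in both genotypes, and Itgav differed by at most 0.17 on the log2 scale in each of the 4 comparisons. Itga5, which makes the fibronectin receptor with Itgb1, had 5199, 5548 and 5743 normalized counts in Vps15KO EBSS libraries and 7671, 8174 and 7907 in Vps15KO basal libraries. In WT cells it had 4818, 5144 and 5337 in EBSS, against 9532, 9897 and 9275 in basal medium. Every EBSS library lay below every basal library. EBSS left 69.4% of the basal level in Vps15KO (-0.53 ± 0.06, adjusted p = 9.07e-07) and 53.3% in WT (-0.90 ± 0.06, adjusted p = 4.77e-10). Between genotypes the EBSS libraries overlapped and the difference did not pass the test (0.11 ± 0.06, adjusted p = 0.135), while in basal medium Itga5 was lower in Vps15KO without overlap, at 82.75% of WT (-0.27 ± 0.06, adjusted p = 0.000752, and -0.18 with length and GC trends taken out). The genotype difference in EBSS was called with quantile normalization and with length and GC trends taken out.

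Itgav, which binds vitronectin and latent TGF-beta with its several beta partners, had similar levels in all groups. Its libraries had 4481, 4748 and 4358 normalized counts in Vps15KO EBSS cells and 5006, 5371 and 4969 in WT EBSS cells. In basal medium it had 4872, 4515.5 and 4774 in Vps15KO and 5324, 4528.5 and 4948 in WT. Itgav was lower in Vps15KO in EBSS, at 88.5% of WT (-0.17 ± 0.06, adjusted p = 0.0282), with the groups apart. That call was lost without Vps15KO EBSS replicate 1 (-0.17) or 3 (-0.15) and without WT EBSS replicate 2 (-0.14). The same happened with quantile normalization, with no variance trend and with no filter on low values. The genotype difference in basal medium (-0.06 ± 0.06) and the EBSS effects in Vps15KO (-0.06 ± 0.06) and WT (0.05 ± 0.06) did not pass the test, with overlapping groups in each. That genotype difference was called with library weights and with length and GC trends taken out. When trends of the values with the length and GC content of transcripts were taken out of each library, EBSS effects of -0.33 in Vps15KO and -0.27 in WT were called for this long transcript, so the direction of its WT value depends on that step.

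Both alpha subunits of laminin receptors were higher in Vps15KO cells in EBSS. Itga6, found in hemidesmosomes of epithelia and in laminin receptors of many cells, had 1607, 1668 and 1624 normalized counts in Vps15KO EBSS libraries, against 1170.5, 1145 and 1098 in WT EBSS libraries. In basal medium it had 1515.5, 1551.5 and 1585.5 in Vps15KO, against 985, 779 and 966 in WT. The Vps15KO libraries lay above the WT libraries in both media, and WT basal replicate 2 was the lowest of all. Itga6 was at 143.5% of WT in EBSS (0.51 ± 0.07, adjusted p = 1.07e-05) and at 170.4% in basal medium (0.76 ± 0.07, adjusted p = 9.39e-08). EBSS raised it in WT (0.32 ± 0.07, adjusted p = 0.00105, and 0.20 without both WT libraries that stood apart or 0.18 with length and GC trends taken out, still called), and the change in Vps15KO was not called (0.07 ± 0.07, adjusted p = 0.429). The EBSS libraries lay wholly above the basal ones in WT, and by a small margin in Vps15KO as well.

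Itga3, a receptor subunit for laminins of basement membranes, had 2206.5, 2212 and 2282 normalized counts in Vps15KO EBSS libraries and 2745, 3403 and 3394 in Vps15KO basal libraries. In WT it had 1593, 1547 and 1452 in EBSS, against 2939, 2772 and 2712 in basal medium. EBSS lowered Itga3 without overlap in both genotypes, to 70.2% of basal in Vps15KO (-0.50 ± 0.07, adjusted p = 1.97e-05) and 54.5% in WT (-0.86 ± 0.07, adjusted p = 1.34e-08). In EBSS, Vps15KO cells had 145.9% of the WT level (0.54 ± 0.07, adjusted p = 5.39e-06). In basal medium the genotypes overlapped, through Vps15KO replicate 1, and the difference of 0.17 ± 0.07 just missed the threshold (adjusted p = 0.0530). It was called at 0.27 without that library, at 0.205 without WT basal replicate 1, and at 0.16 without both WT libraries that stood apart. Library weights, or taking out length and GC trends, also gave a call.

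Among the 9, the collagen receptor subunits Itga11 and Itga1 had the fewest reads, from 82 to 287 reads per library for Itga11 and from 127 to 294 for Itga1. Itga10, a collagen receptor subunit outside the 9, had 785 to 1144 reads per library. Itga11, the fibroblast receptor for fibrillar collagen, had 100.3, 80.9 and 128 normalized counts in Vps15KO EBSS cells, against 180.1, 250.3 and 224 in WT EBSS cells. In basal medium it had 115, 98.0 and 95.1 in Vps15KO, against 220.5, 304 and 257 in WT. In both media the Vps15KO libraries were lower without overlap, and the Vps15KO mean was 47.3% of WT in EBSS (-0.93 ± 0.14, adjusted p = 1.49e-05) and 39.5% in basal medium (-1.15 ± 0.14, adjusted p = 1.29e-06). No EBSS effect on Itga11 was called, with -0.01 ± 0.14 in Vps15KO (adjusted p = 0.964) and -0.23 ± 0.14 in WT (adjusted p = 0.157).

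Itga1, which binds basement membrane and fibrillar collagens, rose in EBSS in both genotypes. It had 281, 290.0 and 262 normalized counts in Vps15KO EBSS libraries and 219.7, 198 and 206 in Vps15KO basal libraries. In WT it had 228.5, 245 and 248 in EBSS, against 173, 134 and 199 in basal medium. The media did not overlap in either genotype, and the changes were 0.38 ± 0.10 in Vps15KO (adjusted p = 0.00560) and 0.46 ± 0.10 in WT (adjusted p = 0.000820). Neither was called once trends with length and GC content were taken out, at 0.08 in Vps15KO and 0.15 in WT. The Vps15KO difference in basal medium was called (0.28 ± 0.10, adjusted p = 0.0301) with overlapping groups, and was lost without WT basal replicate 2 (0.14), Vps15KO basal replicate 1 (0.24) or Vps15KO basal replicate 3 (0.28). This difference also lost its call without both WT libraries that stood apart, with library weights and with medians made equal. So it did with no filter on low values, with only the groups compared and with length and GC trends taken out. In EBSS it was not called (0.19 ± 0.10, adjusted p = 0.134), although the groups did not overlap. It was called without WT basal replicate 2, with the same 0.19, and also with library weights and with only the groups compared.

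**Figure D2:**
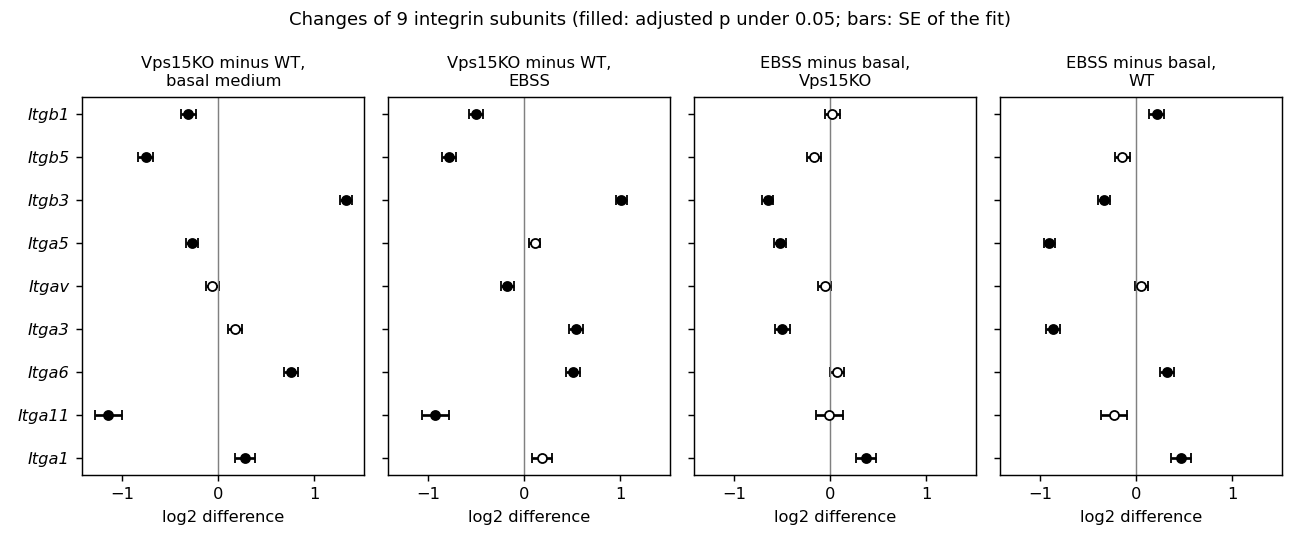
Log2 differences of the deposited values for the 9 integrin subunits in 4 comparisons, with standard errors from the limma fit over 12 libraries. Filled points passed adjusted p 0.05. Itgb3 at 1.33 and Itga11 at -1.15 mark the extremes of the Vps15KO difference in basal medium.

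Counted together, 7 of the 9 subunits were called for the Vps15KO difference in basal medium, where 58.5% of all genes tested were called. Itga1, Itga6 and Itgb3 were higher (29.3% of all genes) and Itga5, Itga11, Itgb1 and Itgb5 were lower (29.2%). In EBSS the Vps15KO difference was called for 7 subunits as well (57.2% of all genes), with Itga3, Itga6 and Itgb3 higher (29.4%) and Itga11, Itgav, Itgb1 and Itgb5 lower (27.8%). EBSS changed 4 subunits in Vps15KO cells, where 52% of all genes were called, Itga1 being higher (25.9%) and Itga3, Itga5 and Itgb3 lower (26.1%). In WT cells it changed 6 (62.7% of all genes), with Itga1, Itga6 and Itgb1 higher (31.4%) and Itga3, Itga5 and Itgb3 lower (31.3%). By library ranges, 2 subunits lay wholly above and 4 wholly below WT in Vps15KO basal cells (the groups were apart for 61.7% of all genes), and 4 lay above and 4 below in Vps15KO EBSS cells (66.3%). EBSS and basal libraries were apart for 2 higher and 4 lower subunits in Vps15KO (63% of all genes) and for 2 higher and 3 lower ones in WT (65.2%). These counts are near the shares for all genes or too few to tell from them, so they describe the subunits and set them apart from nothing. The median log2 difference over the 9 was -0.06 for Vps15KO in basal medium (-0.01 over all genes), 0.11 for Vps15KO in EBSS (-0.00), -0.06 for EBSS in Vps15KO (-0.02) and -0.14 for EBSS in WT (-0.02). Itgb3 was called in all 4 comparisons, as were 18.7% of all genes. The comparisons share libraries, so their calls are not independent of each other.

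The ordering of the subunits by level was compared per length, as normalized counts per kb of annotated exon. Itgb1 led in every group, at 5059 ± 132 per kb in Vps15KO EBSS, 7184 ± 441 in WT EBSS, 4983 ± 195 in Vps15KO basal and 6211.5 ± 674 in WT basal cells. Itgb5 came next, at 1752 ± 14.1 per kb in Vps15KO EBSS, 3024 ± 136 in WT EBSS, 1974 ± 35.1 in Vps15KO basal and 3361.5 ± 467 in WT basal cells. Itga5 followed at 1114 ± 55.9 per kb in Vps15KO EBSS, 1034 ± 53.2 in WT EBSS, 1605 ± 51.0 in Vps15KO basal and 1939.6 ± 63.4 in WT basal cells. These 3 held the top places in all groups, without overlap between neighbours. Itgav and Itga3 took the places after them. Itgav was above Itga3 in both EBSS groups and below it in Vps15KO basal cells, and in WT basal cells their libraries overlapped. Itgb3 was above Itga6 in both Vps15KO groups and in WT basal cells, and below it in WT EBSS cells (115 ± 5.01 per kb, against 126 ± 4.07 for Itga6). Itga11 at 20.03 to 50.75 per kb and Itga1 at 9.08 to 14.9 were lowest in all groups. The order of Itgav and Itga3 in basal medium, of Itgb3 and Itga6 in Vps15KO EBSS and WT basal cells, and of Itga11 and Itga1 in Vps15KO EBSS cells changed when the longest transcript was used as the length.

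Shares were taken of the summed level per kb of the 6 alpha subunits described here, a pool that leaves out other alpha subunits such as Itga7 and Itga10. Within it Itga3 and Itga6 took more in Vps15KO cells, and the RGD and collagen classes less. A share can fall without a fall in level, and the members of a class did not all move alike. In EBSS Itga5 stood at 1114 per kb in Vps15KO and 1034 in WT, and Itgav at 421.5 and 476. Itga1 stood at 14.9 per kb in Vps15KO and 12.9 in WT in EBSS, and Itga11 at 20.1 and 42.5. Itga3 and Itga6 together made up 27.3%, 26.4% and 26.5% of this pool in Vps15KO EBSS libraries, against 21.5%, 19.9% and 19.0% in WT EBSS libraries. In basal medium they made up 24.1%, 26.7% and 27.05% in Vps15KO, against 20.1%, 18.65% and 19.5% in WT. The difference was 6.57 percentage points in EBSS and 6.53 in basal medium, with no overlap. Itga5 and Itgav held 71.7% ± 0.568 in Vps15KO EBSS and 77.0% ± 1.06 in WT EBSS cells, and 72.9% ± 1.48 in Vps15KO basal and 78.6% ± 0.503 in WT basal cells. Itga1 and Itga11 held 1.635% ± 0.174 in Vps15KO EBSS and 2.825% ± 0.304 in WT EBSS cells, and 1.116% ± 0.136 in Vps15KO basal and 1.96% ± 0.25 in WT basal cells. Each of these genotype comparisons gave p = 0.1 in a two-sided exact permutation test over libraries, the smallest that 3 against 3 allows, and 0.133 after adjustment over the 12 tests of shares, so none can pass a threshold of 0.05. The laminin share differed between media by 0.754 points in Vps15KO (exact permutation p = 0.8), which was -0.173 without Vps15KO basal replicate 1, and by 0.715 points in WT (exact permutation p = 0.5), which was -0.366 without both WT libraries that stood apart. Itga7, the laminin receptor subunit outside the pool, stood at 508 ± 14.1 per kb in Vps15KO EBSS cells, against 320.1 ± 21.4 in WT EBSS cells, and at 606 ± 28.9 in Vps15KO basal cells, against 432 ± 44.5 in WT basal cells, which is above Itga6 everywhere. In a pool of all 14 testable alpha subunits, chosen after seeing the data, Itga3, Itga6 and Itga7 together held 36.6% ± 0.309 in Vps15KO EBSS and 26.75% ± 0.607 in WT EBSS cells, and 36.1% ± 1.48 in Vps15KO basal and 26.4% ± 0.5525 in WT basal cells. The collagen class of that pool, with Itga2 and Itga10 added, held 7.39% ± 0.239 in Vps15KO EBSS and 10.45% ± 0.364 in WT EBSS cells. In basal medium this class held 5.5% ± 0.602 in Vps15KO and 7.255% ± 0.369 in WT cells. The RGD class, with Itga8 added, held 54.1% ± 0.649 in Vps15KO EBSS and 60.3% ± 0.515 in WT EBSS cells. Its basal shares were 56.7% ± 0.856 in Vps15KO and 64.1% ± 0.387 in WT cells.

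Among the 3 beta subunits, Itgb3 made up 3.36% ± 0.126 of the summed level per kb in Vps15KO EBSS cells, against 1.11% ± 0.0243 in WT EBSS cells, and 5.11% ± 0.264 in Vps15KO basal cells, against 1.504% ± 0.0377 in WT basal cells. Itgb5 made up 24.9% ± 0.422 in Vps15KO EBSS and 29.3% ± 0.353 in WT EBSS cells, and 26.9% ± 0.665 in Vps15KO basal and 34.7% ± 5.48 in WT basal cells. The wide spread of the WT basal group came from replicate 2, where Itgb1 held 57.5% of the beta pool, against 66.5% and 67.4% in replicates 1 and 3. These shares were not tested.

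**Figure D3:**
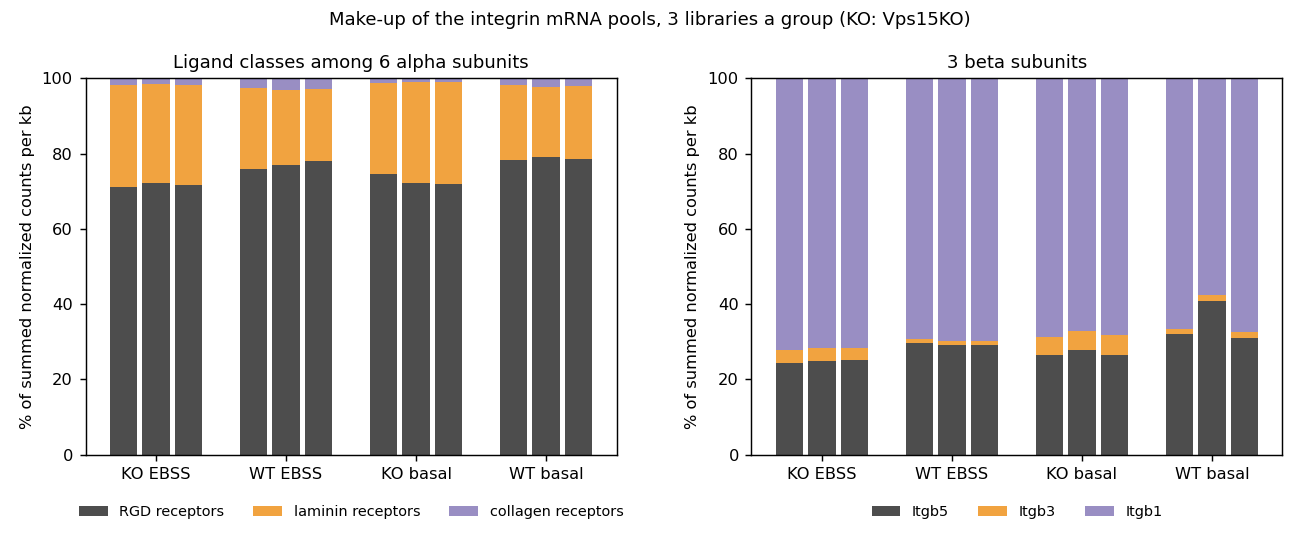
Shares of the summed normalized counts per kb held by each ligand class of alpha subunit (left) and by each beta subunit (right), 1 bar per library in replicate order. Laminin receptor subunits take 24.1% to 27.3% of the pool of 6 alpha subunits in Vps15KO libraries and 18.65% to 21.5% in WT libraries, and Itgb3 is the thin band of the beta pool that widens in Vps15KO.

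The EBSS effect differed between genotypes for 3 of the 9 subunits, Itga5, Itga3 and Itgb3, where 17.8% of all genes were called (9.55% higher and 8.24% lower in Vps15KO minus WT). Itga5 and Itga3 fell less in Vps15KO than in WT, by 0.38 ± 0.08 for Itga5 (interaction term of the limma fit, adjusted p = 0.00447) and 0.37 ± 0.10 for Itga3 (adjusted p = 0.0207). Itgb3 fell more in Vps15KO, by -0.32 ± 0.09 (adjusted p = 0.0164). The Itga5 call held under each of the alternatives run. The Itga3 call was lost without Vps15KO EBSS replicate 3 (0.35), WT EBSS replicate 3 (0.33) or Vps15KO basal replicate 1 (0.26), and also with no filter on low values or no variance trend, both at the same 0.37. The Itgb3 call was lost without Vps15KO EBSS replicate 3 (-0.28), WT EBSS replicate 2 (-0.29) or Vps15KO basal replicate 3 (-0.29). For the other 6 the difference of the effects was not called, with -0.25 ± 0.10 for Itga6 (adjusted p = 0.113), -0.19 ± 0.11 for Itgb1 (adjusted p = 0.243), 0.22 ± 0.20 for Itga11, -0.11 ± 0.09 for Itgav, -0.09 ± 0.15 for Itga1 and -0.03 ± 0.11 for Itgb5.

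**Figure D4:**
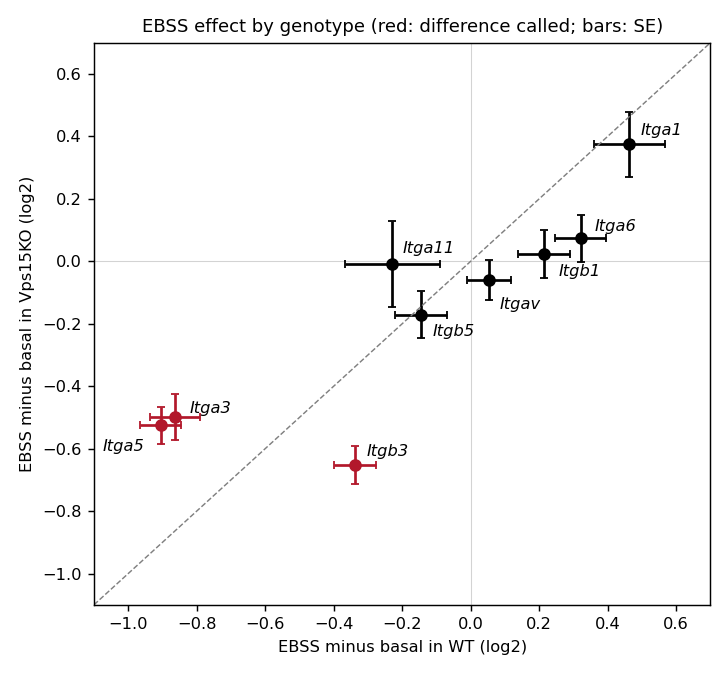
The EBSS effect (log2, EBSS minus basal) in Vps15KO cells plotted against that in WT cells for the 9 subunits, with standard errors and the line of equal effects. Itga5 and Itga3 lie above the line and Itgb3 below it, and these 3 passed the test of the difference.

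Genes that work with these subunits were taken from lists. Of 9 other integrin subunits, 8 were testable and Itgb6, an epithelial subunit, had at most 5 reads. In basal medium 2 were higher and 3 lower in Vps15KO, near the 58.5% called of all genes, with Itga8, a binder of nephronectin and fibronectin, at -0.76 ± 0.09 (adjusted p = 9.15e-07), Itga7, another laminin receptor subunit, at 0.49 ± 0.07 (adjusted p = 1.34e-05) and Itgb4 at -0.49 ± 0.08 (adjusted p = 5.99e-05). In EBSS 1 was higher, Itga7 at 0.66 ± 0.07 (adjusted p = 3.21e-07), and 3 were lower (57.2% called of all genes). Of 8 leukocyte and platelet integrins, 4 were testable. Itgb7 was higher in Vps15KO by 2.08 ± 0.10 in EBSS (adjusted p = 7.97e-12) and by 2.26 ± 0.10 in basal medium (adjusted p = 3.97e-12), and Itgb2 by 0.79 ± 0.11 in EBSS (adjusted p = 7.37e-06) and by 1.56 ± 0.11 in basal medium (adjusted p = 1.58e-09). The third called gene, the platelet subunit Itga2b, was lower by -0.28 ± 0.09 in EBSS (adjusted p = 0.00899) and by -0.46 ± 0.09 in basal medium (adjusted p = 0.000174). EBSS raised 1 and lowered 1 gene of each of these lists in either genotype (52% of all genes called in Vps15KO, 62.7% in WT). The usual alpha partners of Itgb2, Itgal, Itgam, Itgad and Itgax, had at most 6 reads in any library.

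The ligands of these receptors were mostly lower in Vps15KO cells. Of 25 testable matrix ligands, 4 were higher and 15 lower in EBSS (median log2 -0.50), against 29.4% higher and 27.8% lower of all genes, and 4 were higher and 19 lower in basal medium (median -0.52), against 29.3% and 29.2%. The 4 higher in EBSS were the laminin chains Lama5 (0.54 ± 0.07), Lamb1 (0.44 ± 0.06) and Lamc1 (0.30 ± 0.06), and Tgfb1 (0.21 ± 0.06). The 4 in basal medium were Nid1 (0.74 ± 0.15), Tgfb1 (0.52 ± 0.06), Lamb1 (0.46 ± 0.06) and Lamc1 (0.19 ± 0.06). Of the other laminin chains, Lama2 was lower in both media, and Lama4 and Lamb2 were lower in basal medium. Col1a1, the main fibrillar collagen chain, was at -1.89 ± 0.09 in EBSS (adjusted p = 1.11e-11) and -1.90 ± 0.09 in basal medium (adjusted p = 1.34e-11). Col1a1, Col1a2 and Col3a1 are also on the fibroblast marker list whose sum was lower in Vps15KO, and the part of cell makeup in these differences was not tested. EBSS raised 8 and lowered 4 of the ligands in Vps15KO cells (25.9% and 26.1% of all genes), and raised 6 and lowered 10 in WT cells (31.4% and 31.3%). Fn1, the fibronectin bound by Itga5 with Itgb1, rose in EBSS by 0.34 ± 0.08 in Vps15KO (adjusted p = 0.00129). In WT its change was not called (-0.14 ± 0.08, adjusted p = 0.119). Its EBSS effect was thus higher in Vps15KO than in WT by 0.48 ± 0.11 (adjusted p = 0.00514). That difference had the same sign as the one for Itga5, but Itga5 itself fell in EBSS in both genotypes. Between genotypes Fn1 was lower in Vps15KO in basal medium (-0.44 ± 0.08, adjusted p = 9.54e-05), and no difference was called in EBSS (0.04 ± 0.08).

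Of 34 testable adhesion adaptors and kinases, the proteins that gather on integrin tails, 7 were higher and 15 lower in Vps15KO in EBSS (median -0.15), against 29.4% and 27.8% of all genes, and 7 were higher and 22 lower in basal medium (median -0.35), against 29.3% and 29.2%. In EBSS the leading ones were Tns1, a tensin that binds beta tails, at -1.63 ± 0.08 (adjusted p = 8.23e-12), the scaffold Nedd9 at -1.66 ± 0.09 (adjusted p = 1.95e-11) and the parvin Parva at -1.05 ± 0.06 (adjusted p = 9.38e-11). In basal medium the actin crosslinker Flna, whose protein also binds beta tails, was at -1.24 ± 0.07 (adjusted p = 1.02e-10). EBSS raised 11 and lowered 6 of the list in Vps15KO (25.9% and 26.1% of all genes), and raised 14 and lowered 9 in WT (31.4% and 31.3%). Of the 26 trafficking and membrane partners, 12 were higher and 6 lower in Vps15KO in each medium (median 0.09 in both), where calls in either direction took in 57.2% of all genes in EBSS and 58.5% in basal medium. They include Dab2, a clathrin adaptor that takes up integrins, at 0.93 ± 0.08 in EBSS (adjusted p = 1.12e-08) and 0.77 ± 0.08 in basal medium (adjusted p = 1.49e-07), and Slc3a2, the heavy chain of amino acid transporters that associates with beta subunits, at 1.40 ± 0.08 in EBSS (adjusted p = 8.36e-11). EBSS raised 7 and lowered 8 of these partners in Vps15KO (52% of all genes called), and raised 8 and lowered 8 in WT (62.7%). The EBSS effect was higher in Vps15KO than in WT for 6 of 25 matrix ligands and lower for 2, higher for 7 of 34 adaptors and lower for 3, and higher for 4 of 26 trafficking partners and lower for 3, against 9.55% higher and 8.24% lower of all genes. It was called for none of the other integrin subunits by limma, where 0 of 8 had an unadjusted p under 0.05, nor by voom, and for Itgb2 of the leukocyte list at -0.76 ± 0.16 (adjusted p = 0.00254).

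**Figure D5:**
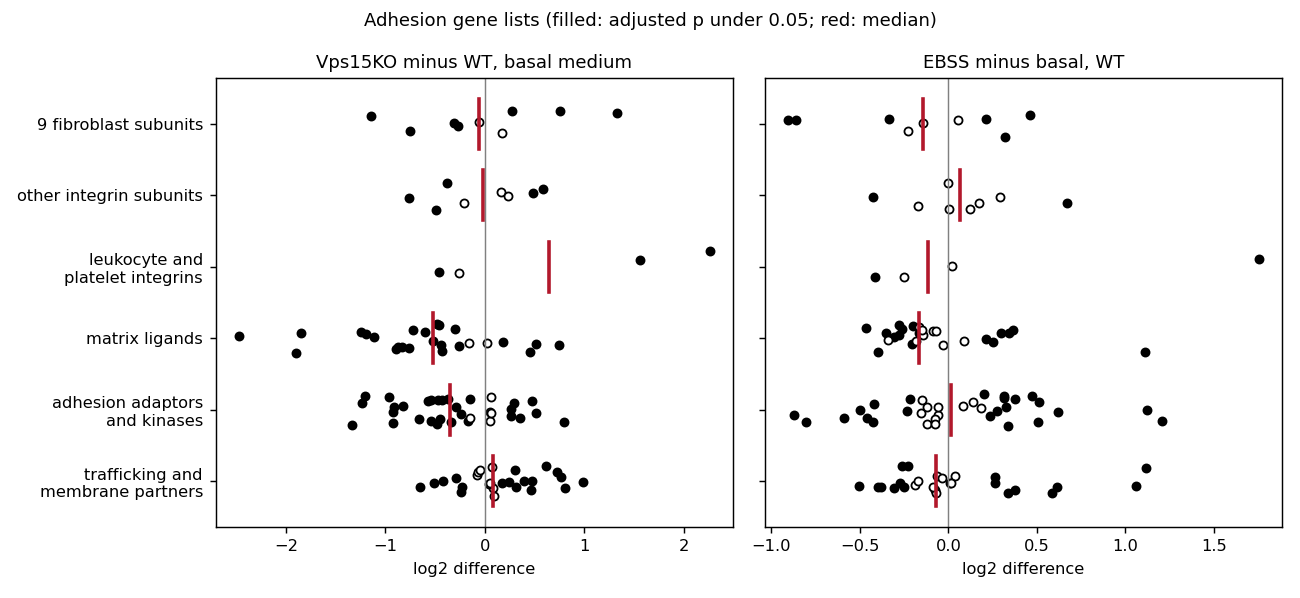
Log2 differences of every testable gene of the 9 fibroblast subunits and of 5 lists of related genes, for Vps15KO minus WT in basal medium (left) and EBSS minus basal in WT (right), with filled points for called genes and a bar at each median. In the left panel matrix ligands and adhesion adaptors have medians of -0.52 and -0.35.

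Across the 12 libraries, the subunits fell into patterns that their group means already show. Itga6 and Itgb5 ran opposite to each other (Pearson r -0.97 of the deposited values), Itga11 ran with Itgb5 (0.95) and against Itga6 (-0.949), and Itga3 ran with Itga5 (0.818) and Itgav with Itgb1 (0.82). Itgb1 ran against Itgb3 (-0.862) but with Itgb5 (0.758). The 12 points are 4 groups of 3 with shared conditions, so these values are descriptions and carry no p. By the same measure, taken over the tested protein-coding genes other than the 9 and without predicted or clone-named genes, those most like Itgb3 included Reep4 (0.995). Another was Aacs, which makes acetoacetyl-CoA (0.993). Those most like Itgb5 were Nxn (0.995), the receptor gene Il11ra1 (0.995) and Pik3r2, a regulatory subunit of class 1 PI3K (0.990). Those most like Itga6 were Slc25a30 (0.993), Sel1l, which acts in degradation of proteins from the endoplasmic reticulum (0.991), and the nuclear import receptor Ipo7 (0.991). For Itga5 they were Lrrc42 (0.991), Gpr137 (0.990) and Men1 (0.988), for Itga3 Rps6ka1 (0.986), Acsf2 (0.979) and Rad50 (0.978), and for Itga11 Fxyd1 (0.982), Ctf1 (0.975) and Smim19 (0.974). For Itga1 they were Nupl1 (0.980), Herpud2 (0.978) and Marchf7 (0.978), and for Itgb1 Ccpg1 (0.981), Pcdhb17 (0.980) and Pros1 (0.980). Itgav had the weakest likeness, led by Jpt2 at 0.943.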

How the data were processed

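Poly-A RNA of 12 libraries was measured. The deposited table holds log2 values, the authors' variance-stabilized counts, for 32721 genes. The submitters' processing notes name the build mm10 and the tools limma, DESeq2, featureCounts and STAR 2.7.10b, without their roles. From the floor of 3.83, the value of 0 reads, the transformation was inverted. All values (100% in each library) then gave whole reads within 0.001, with size factors of 0.945 to 1.02.

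The 14279 genes whose mean lay 1 or more over the floor were fitted with limma 3.58.1 in R 4.3.3, with 1 mean per group over all 12 libraries, empirical Bayes moderation with a variance trend, 8 residual and 10.2 prior degrees of freedom, and two-sided tests. Benjamini-Hochberg adjustment ran over all genes in each comparison, with calls at adjusted p under 0.05. Log2 differences understate ratios of low genes. Exon lengths came from GENCODE M21, and positions and promoters from RefSeq. The fit was run on simulated data with independent normal noise and few changed genes in a single group. Far more genes were called here, so that run gives no error rate for these data. Shares were tested by exact permutation in Python 3.11.15 with scipy 1.17.1.

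All 9 subunits were named. So were Pik3r4, up to 3 called genes of smallest p per list and comparison, and the 3 genes of highest Pearson r with each subunit. The last were sought among tested protein-coding genes, without the 9 subunits and without predicted or clone-named genes. Not every gene the rule allows is printed. Cd68 and the other cell type markers given with values, Itga10, further laminin chains and the low integrin genes were named after their values were seen. The subunits and the lists were chosen with earlier results of these data known. Alternatives were the replicate block, other filters and scalings, library weights, no variance trend, a log2 scale of normalized counts with 1 added, a fit of only the groups compared, voom on the worked-back reads, length and GC trends removed with splines of 5 degrees of freedom (13527 genes), libraries left out, and the longest transcript. A pool of all testable alpha subunits was added after seeing the data.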

Additional observations from a re-analysis of the deposited data

Results flagged for a closer look

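The EBSS effect differed between Vps15KO and WT cells, by the interaction term of the limma fit, for 3 of the 9 integrin subunits. Of all genes tested, 17.8% were called for this difference. The difference, Vps15KO minus WT on the log2 scale, was 0.38 for Itga5 (EBSS effects of -0.53 in Vps15KO and -0.90 in WT), 0.37 for Itga3 (-0.50 in Vps15KO and -0.86 in WT) and -0.32 for Itgb3 (-0.65 in Vps15KO and -0.34 in WT). In each gene and each genotype all 3 EBSS libraries lay below all 3 basal libraries. Itga5 and Itga3 thus kept more of their basal level in Vps15KO cells, and Itgb3 kept more of it in WT cells. The Itga5 call held under every alternative, while the Itga3 call was lost under 5 of them and the Itgb3 call under 3.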

How the results depend on the processing

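The counts of called subunits ran over the alternatives from 6 to 8 for the Vps15KO difference in each medium, from 4 to 5 for EBSS in Vps15KO and from 5 to 7 for EBSS in WT. All genes called moved as well, from 6856 to 8961 for the Vps15KO difference in basal medium and from 6731 to 9294 in EBSS. For EBSS they ran from 6273 to 8759 in Vps15KO and from 7524 to 9260 in WT. The alternatives tested 14279 genes, except 32721 with no filter, 10613 with the filter at 3 above the floor and 13527 with length and GC trends removed. For the difference of the EBSS effect, leaving out each library in turn gave 1 to 3 of the subunits, the 1 being without Vps15KO EBSS replicate 3. It gave 1863 to 3175 genes in all of 14279 tested, against 2540 with every library. With no filter on low values 1517 genes were called, of 32721 tested. Of 1071 alternative values for single subunits, 1018 kept their side of the threshold (16 of them changed sign without being called in either setting), 20 passed it newly, 32 fell short of it and 1 changed sign and was called, the EBSS effect on Itgav in WT, which was -0.27 with length and GC trends removed, against 0.05. With the same step Itga8, called at 0.22 for EBSS in Vps15KO, came to -0.012. Of the lists, the genes called for the difference of the EBSS effect ran over the alternatives from 3 to 10 matrix ligands (8 in the report), from 6 to 15 adaptors (10 in the report) and from 4 to 13 trafficking partners (7 in the report), and the 2 called genes of the integrin lists for EBSS within a genotype came to between 1 and 4. The causes were not tested. Replicate numbers were shared between groups, and the labels do not say whether same-numbered libraries were handled together. Between genotypes, residuals of same-numbered libraries correlated by 0.039 to 0.26, against -0.212 to 0.106 for different numbers. Between media the values were -0.155 to 0.0125, against -0.0737 to 0.142. The main fit did not take the numbers as pairs. With the replicate block the subunits called stayed at 7, 7, 4, 6 and 3, and all genes called for the Vps15KO difference in basal medium came to 4182 higher and 4176 lower, against 4184 and 4169 without it. Restricting the fit to the groups compared gives no other fit for the difference. The alpha subunit shares cannot pass 0.05 in any setting. Their differences kept their sign in all alternatives except the laminin share between media, at -0.173 points in Vps15KO without Vps15KO basal replicate 1 and -0.366 in WT without both WT libraries that stood apart, and its values without 1 library ran from -0.173 to 1.3 in Vps15KO. Depth limits Itga1 and Itga11 most, which had at most 294 and 287 reads in a library.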
